A study of Mus musculus with 60 samples.

Results

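Mitochondria make ATP with 5 enzyme complexes of the inner membrane, and most of the proteins in them are encoded in the nucleus. The genes described here are the nuclear genes of those subunits: all symbols in the gene table that begin Nduf followed by a, b, c, s or v and a number, Sdha to Sdhd, and all that begin Uqcr, Cox4 to Cox8 or Atp5, without pseudogene names and with a mean of at least 1 CPM (counts scaled to a common library total) over all 60 libraries. Of 35976 genes in the table, 83 symbols matched and 80 passed the minimum. Complex I held 35 of them, complex II 4, complex III 8, complex IV 16 and complex V 15, and Atp5s and Atp5sl, which carry the Atp5 name but are not subunits of the enzyme, made up the other 2. Ndufa4 was counted with complex IV, where its protein is known to sit. Just outside the minimum lay Cox4i2 at 0.823 CPM, Cox7b2 at 0.155 CPM and Cox8c, listed at 0, and just inside lay Cox8b at 1.08 CPM and Cox7a1 at 1.23 CPM.

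The study sequenced total RNA from the mouse hippocampus after removal of ribosomal RNA. It compared App NL-G-F mice (NLGF), in which the mouse App gene carries the humanised amyloid beta sequence with the Swedish, Arctic and Beyreuther/Iberian familial Alzheimer's mutations and is expressed from its own promoter, with wild-type mice (WT) at 3, 8 and 24 weeks of age. Each genotype and week had 5 libraries from females and 5 from males. No drug or other treatment is named in the labels, and the sources used here do not give strain background or littermate status. The labels call the samples biological replicates without naming animals, so a p-value measures the spread between these samples. The library NLGF week 8 female 1 has an age field of 3 weeks against a title of week 8 and was kept with week 8, and the counts of sex-linked genes in NLGF week 3 male 2 go against its sex label.

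Electrons enter the chain at complex I, the NADH dehydrogenase, or at complex II, succinate dehydrogenase, which is also an enzyme of the tricarboxylic acid cycle. They pass through complex III and cytochrome c to complex IV, cytochrome c oxidase, where oxygen is reduced, and the proton gradient that complexes I, III and IV build drives complex V, the ATP synthase. Complexes I, III, IV and V also contain a few subunits encoded in mitochondrial DNA, so that their assembly needs both genomes, whereas complex II is wholly nuclear. Neurons depend on this pathway for the ATP that synaptic transmission and ion pumping use.

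In units of 1000000 counts, library totals ran from 17.8 to 73.4 with a median of 26.1. The libraries did not form one group at week 3: 7 of the 10 NLGF libraries (3 female, 4 male) held 54.0 to 73.4 such units, and the 3 others (2 female, 1 male) held 19.5 to 34.0, within the 17.8 to 35.2 of all other groups. These 7 are called the deep libraries below, they are shown apart throughout, and whether they were prepared or sequenced separately is not given in the sources used here. One WT library also stood apart, WT week 8 female 1. The median member there lay 0.47 log2 units below its own mean over the 60 libraries, where the other 9 WT week 8 libraries lay between -0.09 and 0.12, and 50 of 80 members (62.5%) were lower there than in any other WT week 8 library, against 25.1% of all genes. By complex these were 21 of 35 in complex I, 2 of 4 in complex II, 4 of 8 in complex III, 11 of 16 in complex IV and 11 of 15 in complex V. Excitatory neuron markers were high in every library, with a summed level of 5 markers between 5590 and 10800 CPM and none at 0.

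The results turn most often on Cox7c, a small nuclear subunit of cytochrome c oxidase. Its gene lies on chromosome 13 of GRCm38 (chr13:86044816-86046904, minus strand), and a near-identical processed pseudogene, Gm10012, lies on chromosome 17 (chr17:25901856-25902227, plus strand) and has its own row in the gene table. The coding sequence of Cox7c and the matching stretch of the pseudogene, read from the genome with GENCODE vM21 models, are printed because a read that covers neither of their differences fits both. They differ at 2 of 192 positions, G30C and G107A, counted from 1 at the first base of the start codon, with the Cox7c base first and the pseudogene base last; these bases are in capitals.
Cox7c: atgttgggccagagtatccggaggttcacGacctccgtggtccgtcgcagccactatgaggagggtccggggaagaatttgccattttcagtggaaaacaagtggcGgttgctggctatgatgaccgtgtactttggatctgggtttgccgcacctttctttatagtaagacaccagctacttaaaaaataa
Gm10012: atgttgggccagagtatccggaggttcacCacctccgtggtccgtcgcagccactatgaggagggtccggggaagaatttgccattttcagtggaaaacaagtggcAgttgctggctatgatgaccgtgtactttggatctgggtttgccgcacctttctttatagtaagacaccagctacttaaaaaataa

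Gm10012 was counted at a small fraction of the level of Cox7c. In WT week 3 it ran from 1.26 to 4.63 CPM with a median of 2.66 CPM, and in the 7 deep NLGF libraries from 0.369 to 0.615 CPM with a median of 0.4657 CPM. The 3 other NLGF week 3 libraries had 1.96, 2.25 and 2.95 CPM, inside the WT range. How reads that fit both places were assigned is not given in the sources used here, so the counts of Cox7c are uncertain to that extent. Those of Ndufs5 and Atp5c1 are likewise uncertain, and their copies BC002163 and Atp5c1-ps are also in the table. Other members have near copies without a row there. Those of Atp5g2, Gm10175 and Gm10231, are 100% identical over 100% of its transcript. Atp5l, Atp5h, Atp5g1 and Uqcrb have near copies over a part of theirs, and so do others, among them Ndufs6 and Ndufb7. The counts of these members are uncertain in the same way.

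Transcript levels were compared between genes per kilobase of transcript, as the mean CPM over the 60 libraries divided by the length of the gene's principal GENCODE vM21 transcript. Complexes III, IV and V had median members at 116, 122 and 123 CPM per kilobase, and complexes I and II at 53.9 and 49.3. The highest member of all was Atp5b, the catalytic beta subunit of the ATP synthase, at 466.8 CPM per kilobase, followed by Cox4i1, the largest nuclear subunit of complex IV, at 446.7. In complex I the range ran from 17.0 for Ndufs4, an accessory subunit, to 152.7 for Ndufb9, an accessory subunit of the membrane arm. In complex II it ran from 19.9 for Sdhc, a membrane anchor, to 122 for Sdha, the flavoprotein that oxidises succinate, although the complex holds one copy of each. In complex III it ran from 40.7 for Uqcrb to 171.5 for Uqcrq, both small subunits. The lowest member of complex V was Atp5j, coupling factor 6, at 63.7.

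**Figure D1:**
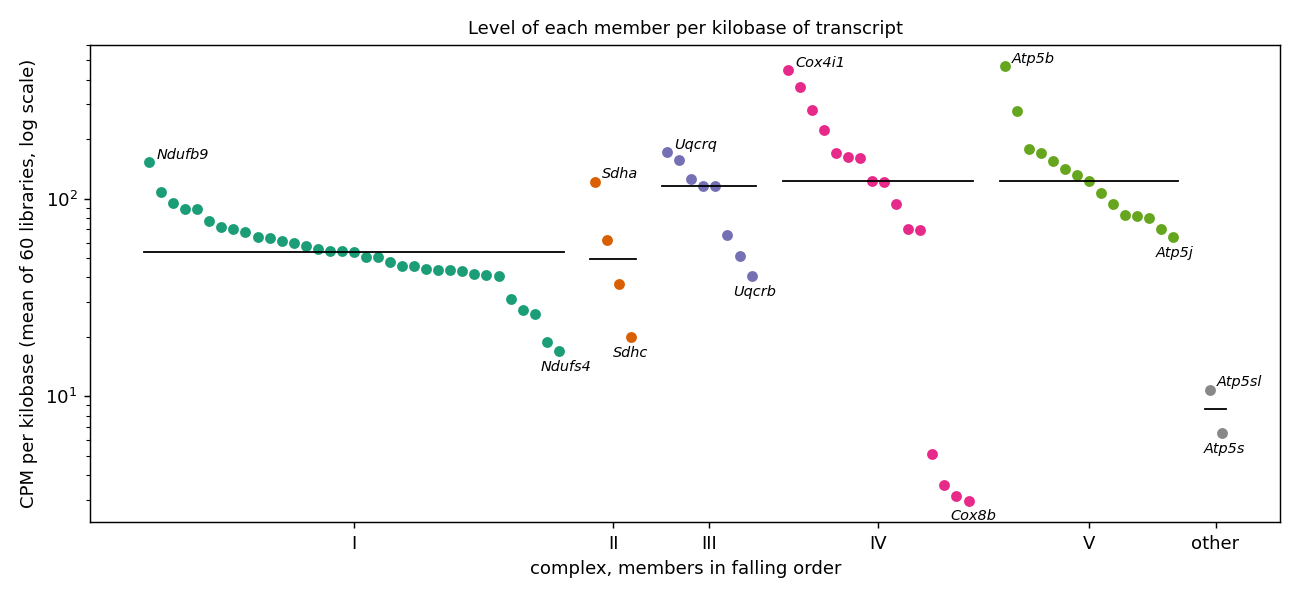
Level of each member in CPM per kilobase of transcript (vertical, log scale, mean of 60 libraries), with members in falling order within each complex (horizontal). Atp5b and Cox4i1 are the highest, at 466.8 and 446.7, and Cox8b is the lowest at 2.97.

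Where a complex IV subunit exists in a common and a tissue-restricted form, the common form made up nearly all of the transcript in every library. Shares here are of the summed CPM per kilobase of transcript. Cox4i1 held a median of 99.8% of the sum of Cox4i1 and Cox4i2 over the 60 libraries, with a lowest value of 99.6%. Cox6a1 held 98.9% against the heart and muscle form Cox6a2, Cox6b1 98.1% against the testis form Cox6b2, Cox8a 99.6% against Cox8b, and Cox7a2 96.9% against Cox7a1. The 3 genes Atp5g1, Atp5g2 and Atp5g3 differ in their import signal but encode the same mature c subunit, the rotor ring of the ATP synthase. Their shares of the summed CPM per kilobase were 37.4%, 21.1% and 41.6% (medians) in WT week 3, 37.2%, 23.7% and 38.5% in the 3 other NLGF week 3 libraries and 44.1%, 16.5% and 39.4% in the 7 deep ones. Atp5g2 therefore had its lowest share in the deep libraries, with the uncertainty from its copies given above.

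Cox8b, the muscle form at 1.08 CPM, varied more within groups than between them. Its highest library had 5.13 CPM among the deep NLGF week 3 libraries (female 1) and 6.90 CPM at NLGF week 24 (female 3), and its lowest had 0.289 and 0.158 CPM in the same groups. Both high libraries also had the highest summed level of 5 choroid plexus markers (Ttr, Folr1, Kl, Aqp1, Otx2) of their group, as did the libraries with most Cox8b in WT week 3 and NLGF week 8. In the other groups the library with most Cox8b ranked 4 of 10 (WT week 8), 2 of 10 (WT week 24) and 3 of 3 (other NLGF week 3). The part of choroid plexus in Cox8b was not tested. None of the 5 markers was at 0 in any library.

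Expression was then compared between the genotypes at each week with edgeR's quasi-likelihood test, with sex as a covariate, and a member was called at an adjusted p (Benjamini-Hochberg over all genes tested) under 0.05. At week 3, 19 of 80 members were called lower in NLGF and 0 higher, where 2.11% of the 16605 genes tested were called lower and 1.67% higher. The median log2 fold change was -0.09 over the members and 0.01 over all genes, and 18 of 80 members lay above 0, where 52.9% of all genes did. Complex I held 13 of the 19, complex V 3, complex IV 2 and complex III 1, and no complex II member was called. The complex medians were -0.12 (I), -0.05 (II), -0.09 (III), -0.02 (IV) and -0.13 (V). Less RNA per cell and fewer cells of a type that is rich in these transcripts cannot be told apart in bulk tissue. Of 52 cell type markers, 2 were called at this week, the interneuron gene Pvalb (-0.32, adjusted p = 0.041) and the microglial gene P2ry12 (0.58, adjusted p = 0.0331). The summed level of the 5 interneuron markers was 451 to 700 CPM in WT, 481 to 656 in the 3 other NLGF libraries and 568 to 737 in the deep ones, and that of the 5 microglial markers 197 to 240, 226 to 262 and 216 to 242 in the same order. None was at 0, and their part in the subunit differences was not tested.

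These calls rested on the deep libraries. Without the 7 deep libraries no member was called, and with a term for them in the model none was either. The 7 deep libraries against WT gave 29 members lower and 3 higher (11.9% of genes were called lower and 9.57% higher), and the 3 other libraries against WT gave 0 called members among 0 called genes. At an unadjusted p under 0.05 the 3 others gave 14 members lower and 0 higher, where 5.85% of genes were lower and 5.58% higher. The median log2 fold change of the members was -0.10 in both contrasts, which share the WT libraries, against -0.01 and 0.00 over all genes. Depth, the other features of these libraries and genotype cannot be told apart in the 7 libraries, since all of them are NLGF week 3.

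**Figure D2:**
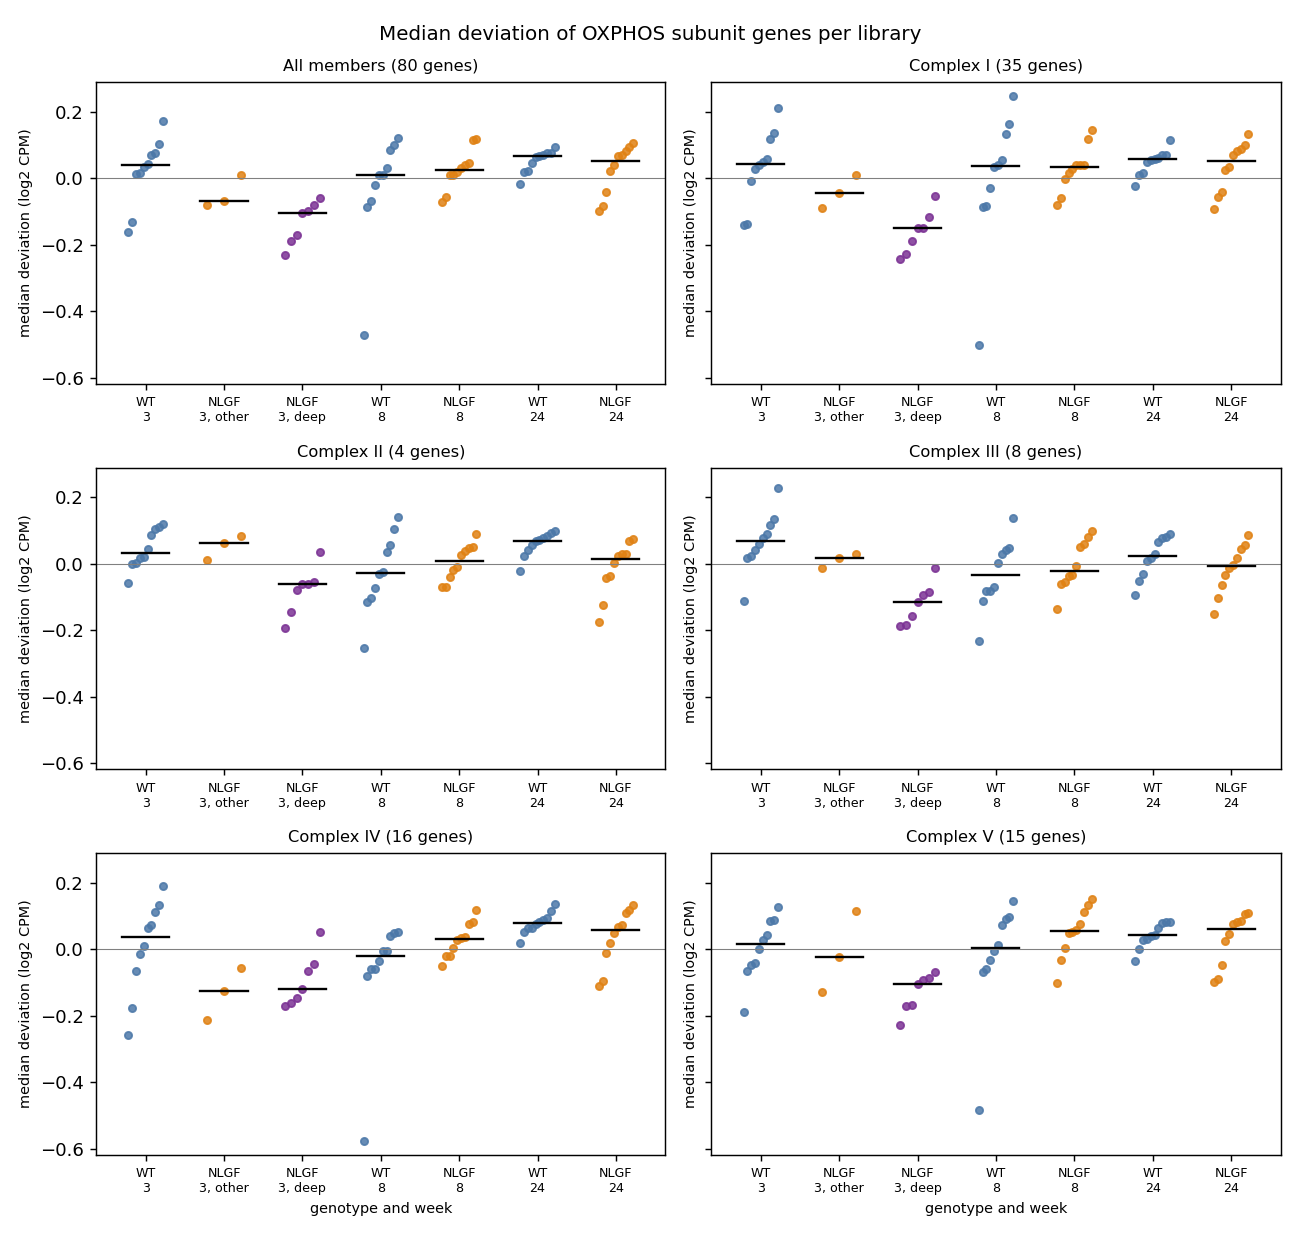
Median deviation of the members of each complex from their own mean over 60 libraries (vertical, log2 CPM), by genotype and week (horizontal), with a point for each library and a bar at the group median. The deep NLGF week 3 libraries lie lowest as a group for all members (median -0.11, against 0.04 in WT week 3), and WT week 8 female 1 lies alone at -0.47.

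Cox7c had the smallest p and, among called members, the largest fall. Its level was 69.05 to 131.3 CPM (median 110.6) in WT week 3, 57.2, 63.7 and 70.1 CPM in the 3 other NLGF libraries and 54.4 to 66.7 CPM (median 61.5) in the 7 deep ones. All 7 deep libraries lay below every WT library, and of the others only the library with 70.1 CPM reached the WT range. The log2 fold change was -0.76 ± 0.10 (SE, n = 10 against 10, edgeR adjusted p = 0.00099), and it was -0.76 for the 3 other and -0.77 for the 7 deep libraries taken apart. The call was kept when any 1 of the 20 libraries was left out, but not in males alone (-0.60, adjusted p = 0.173, against -0.93 and 0.000189 in females). It was also lost without the deep libraries (adjusted p = 0.179) and with a term for them (adjusted p = 0.243). With the counts of Gm10012 added to those of Cox7c it was -0.77 (adjusted p = 0.000387).

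The other complex IV call was Cox4i1, at 332.7 to 472.1 CPM (median 374.8) in WT week 3 and 258.4 to 308.5 CPM (median 278.5) in the deep libraries. The 3 others had 320.5, 324.2 and 407.1 CPM. Those at 320.5 and 324.2 CPM also lay below every WT library, and the one at 407.1 CPM lay within the WT range. Its log2 fold change was -0.34 ± 0.08 (adjusted p = 0.023), and the call was lost without NLGF week 3 female 5. Cox5a, another nuclear subunit, differed by -0.14 without passing the test (adjusted p = 0.201).

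In complex I the members with the smallest p were accessory subunits of the membrane arm. Ndufb3 was at 26.5 to 49.4 CPM (median 36.5) in WT week 3, at 28.4, 29.0 and 29.1 CPM in the 3 other libraries and at 20.1 to 25.8 CPM (median 23.1) in the deep ones. Ndufa1, the X-linked accessory subunit, was at 24.9 to 36.1 CPM (median 32.0), at 23.5, 23.9 and 28.8 CPM and at 13.7 to 21.97 CPM (median 17.5) in the same order. For both genes the deep libraries lay below all WT and all other NLGF libraries. The others lay at the low end of the WT range for Ndufb3, while for Ndufa1 those at 23.5 and 23.9 CPM also lay below every WT library. The log2 fold changes were -0.54 ± 0.10 for Ndufb3 and -0.59 ± 0.11 for Ndufa1 (adjusted p = 0.015 for each). Ndufb9 followed at -0.38 ± 0.07 (adjusted p = 0.0151). These 3 calls were kept when any 1 of the 20 libraries was left out.

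Some subunits of the catalytic core of complex I were among the called members too. Ndufv1, which binds NADH and the flavin, was at 125.2 to 178.7 CPM (median 140.8) in WT week 3 and at 88.8 to 108.8 CPM (median 96.5) in the deep libraries. The 3 other NLGF libraries had 128.0, 144.7 and 149.0 CPM, within the WT range, and taken apart the log2 fold change was 0.01 for them and -0.56 for the deep ones (-0.36 pooled, adjusted p = 0.0367). Ndufs1, an iron-sulfur core subunit beside it, fell by 0.31 on the log2 scale (adjusted p = 0.0292). The core subunits Ndufv2 (-0.10), Ndufs3 (-0.07), Ndufs7 (-0.08) and Ndufs8 (0.08) were not called (edgeR adjusted p from 0.489 to 0.692). Further calls in complex I were Ndufa9, Ndufa13, Ndufs5, Ndufa2, Ndufs6, Ndufb7 and Ndufb4, with log2 fold changes from -0.46 (Ndufa9) to -0.27 (Ndufs6).

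Complexes II and III contributed little to the calls. Sdha was at 340.4 to 432.5 CPM (median 372.4) in WT week 3, at 362.4, 373.4 and 386.6 CPM in the 3 other libraries and at 259.5 to 301.6 CPM (median 290.1) in the deep ones. As for Ndufv1, only the deep libraries lay outside the WT range, and the pooled difference of -0.25 did not pass the test (adjusted p = 0.0523). Sdhb, the iron-sulfur subunit that works with Sdha, differed by 0.04 (adjusted p = 0.769). Uqcrh, the hinge protein of complex III, was called at -0.23 ± 0.07 (adjusted p = 0.0484), and it kept the call without 4 of the 20 libraries taken in turn. Uqcrc1, a core protein of complex III, differed by -0.14 (adjusted p = 0.229), and Uqcrfs1, the Rieske iron-sulfur protein, by -0.04 (adjusted p = 0.719).

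In complex V the calls were Atp5j2, Atp5e and Atp5g3. Atp5j2, subunit f of the membrane part, was at 56.5 to 91.1 CPM (median 78.8) in WT week 3, at 53.7, 61.8 and 65.6 CPM in the 3 other libraries and at 43.5 to 71.4 CPM (median 57.5) in the deep ones. The ranges overlapped, and the log2 fold change was -0.39 ± 0.08 (adjusted p = 0.0192). Atp5e, the epsilon subunit of the central stalk, was at 47.95 to 77.4 CPM (median 66.5), at 60.1, 60.3 and 65.2 CPM and at 41.8 to 50.9 CPM (median 47.2) in the same order. It differed by -0.10 in the 3 others and by -0.52 in the deep libraries (-0.38 ± 0.09 pooled, adjusted p = 0.0245). The catalytic subunits showed smaller differences that were not called, -0.13 for Atp5b (adjusted p = 0.153) and -0.09 for Atp5a1, the alpha subunit (adjusted p = 0.338).

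The number of calls at week 3 moved with single libraries. It was 6 without NLGF female 5, 7 without NLGF female 4 or male 4, 8 without NLGF male 3 or WT female 2, 9 without NLGF female 1 or WT female 3, 11 without NLGF male 2 or WT female 5 and 12 without WT male 5, and it was 26 without NLGF male 1, a library with the ordinary depth. The median log2 fold change of the members stayed between -0.11 and -0.07. In females alone 8 members were called lower and 0 higher (0.877% and 0.249% of genes), and in males alone 0 in either direction (0% of genes lower and 0.0364% higher). The members' differences had the same sign in females and males for 53 of 80 (66.2%, against 57.5% of all genes).

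**Figure D3:**
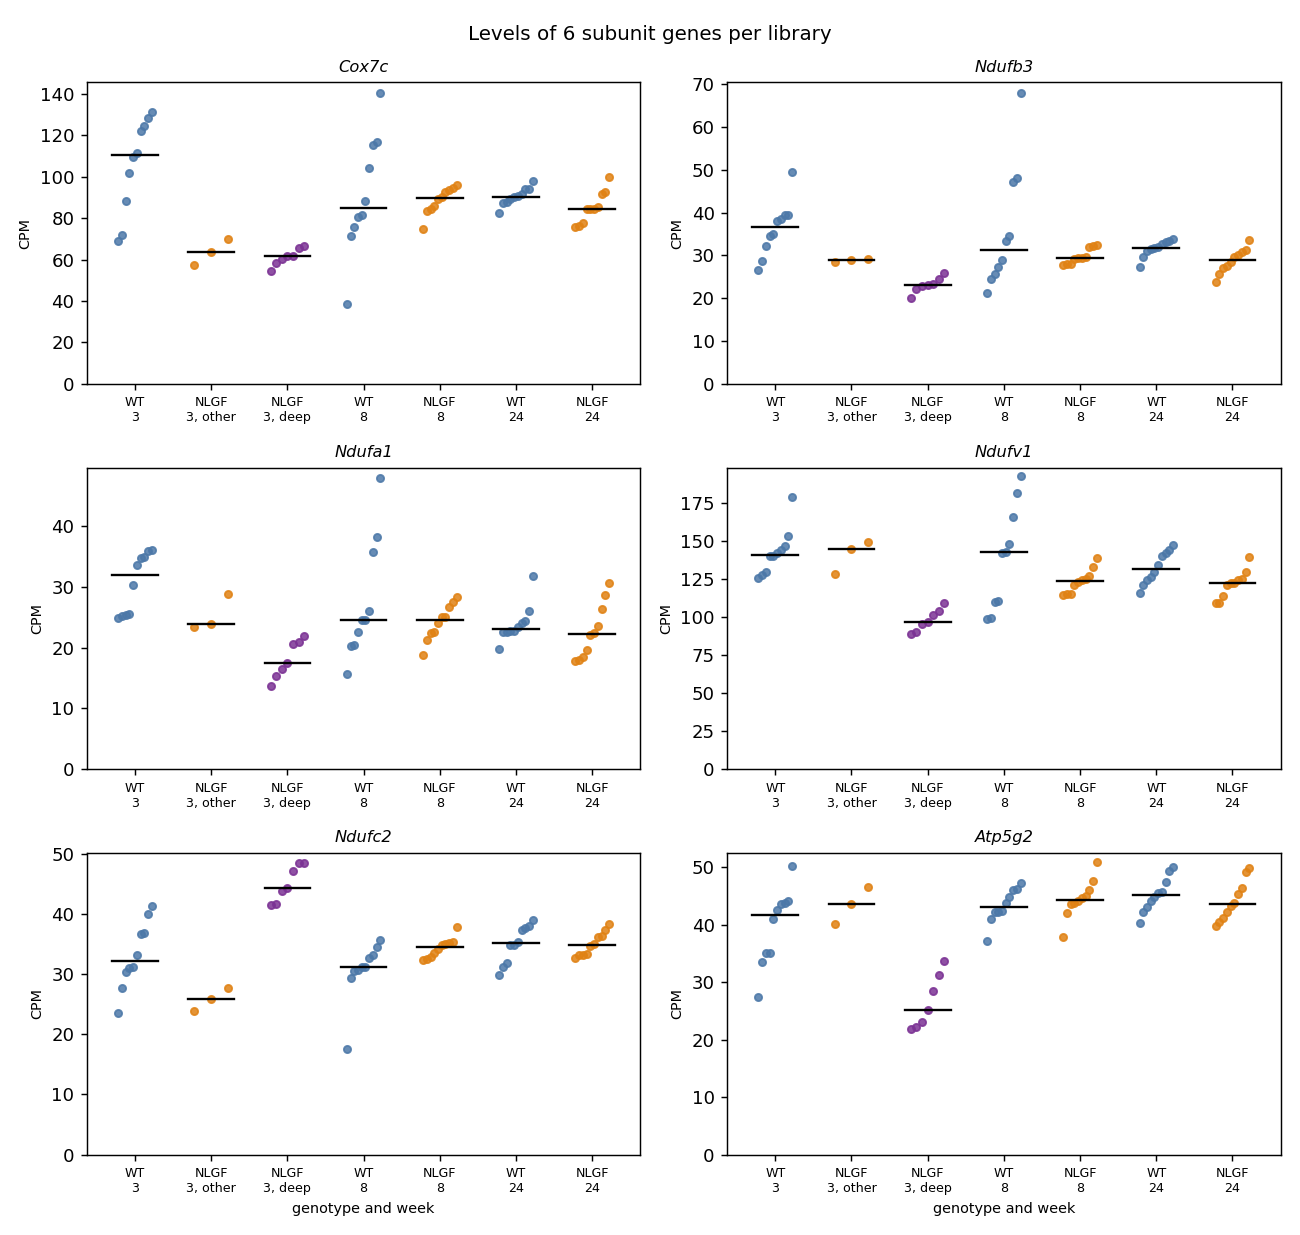
CPM of Cox7c, Ndufb3, Ndufa1, Ndufv1, Ndufc2 and Atp5g2 in each library (vertical, from 0) by genotype and week (horizontal), with a bar at the group median. In Cox7c both kinds of NLGF week 3 library are low, while in Ndufv1 and Atp5g2 only the 7 deep ones are, and in Ndufc2 the deep ones are the highest.

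The deep libraries were also compared with the 3 other NLGF week 3 libraries, which have the same genotype and age. Of the members, 16 were lower in the deep libraries and 5 higher, where 9.23% of genes were lower and 9.2% higher. The largest rise was in Ndufc2, an accessory subunit of the membrane arm of complex I, at 41.5 to 48.5 CPM (median 44.4) in the deep libraries against 23.9, 25.8 and 27.8 CPM in the others and 23.6 to 41.3 CPM (median 32.2) in WT week 3. Of 80 members it was the only 1 above every WT week 3 library in all 7 deep ones, where 1.22% of all genes were, a similar share. The difference of Ndufc2 between the library kinds was 0.86 (log2, adjusted p = 3.33e-05). Ndufc1 and Ndufv2 (0.44 each), Atp5s (0.53) and Cox7b (0.37) were the others that were higher.

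Among the 16 lower members, Atp5g2 had the largest fold: 21.9 to 33.7 CPM (median 25.2) in the deep libraries against 40.0, 43.6 and 46.5 CPM in the others and 27.3 to 50.2 CPM (median 41.7) in WT week 3. Its log2 difference was -0.70 (adjusted p = 0.00295), beside -0.54 for Ndufv1 (adjusted p = 0.00023), -0.53 for Ndufa2, an accessory subunit of the NADH module (adjusted p = 0.00222), and -0.38 for Sdha (adjusted p = 0.00163). Complex III members Uqcrc1 (-0.31), Uqcr11 (-0.41) and Uqcrh (-0.26) and the ATP synthase alpha and beta subunits Atp5a1 and Atp5b (-0.22 each) were lower as well. Cox7c was not among them. In all, 20 members (25% of them, against 9.79% of all genes) were lower in every deep library than in every other NLGF week 3 library, and 5 (6.25%, against 7.04%) were higher. Against WT week 3, 13 members (16.2%, against 2.93% of all genes) were below every WT library in all 7 deep ones. In all 3 others 0 members were, where 0.321% of all genes were. With only 3 libraries on one side, the count of 21 was 6 without NLGF week 3 male 1 and 8 without female 2. Of the 52 cell type markers 5 were higher in the deep libraries (Gad2 0.44, Aqp4 0.49, P2ry12 0.66, Ly6c1 0.57 and Hbb-bs 1.38) and 2 lower (Csf1r -0.26 and Dsp -0.89), and their part in this difference was not tested.

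At week 8 no member was called and no gene of the 16494 tested was (0% in each direction). At an unadjusted p under 0.05, 7 members were higher in NLGF and 2 lower, where 3.17% of genes were higher and 4.66% lower, and DESeq2 called 0 members. The median log2 fold change of the members was 0.06 (all genes -0.01), and 0.02 without WT week 8 female 1. The members with the smallest p were Cox8a (0.22), Sdhb (0.22) and Ndufb2 (0.24), each with an adjusted p of 0.633. Cox7c was at 38.7 to 140.6 CPM (median 85.1) in WT and at 74.8 to 96.1 CPM (median 89.8) in NLGF, so the WT range enclosed the NLGF range.

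At week 24, when NLGF mice are known to carry amyloid plaques, again 0 members were called, where 0.8% of the 16508 genes tested were higher and 0.0787% lower. At an unadjusted p under 0.05, 3 members were higher and 9 lower (4.8% and 4.19% of genes), and the median log2 fold change was -0.03 (all genes -6e-04). The smallest p belonged to Cox5a (-0.12, adjusted p = 0.263), Ndufb3 (-0.14) and Ndufs4 (0.11, adjusted p = 0.336). Cox7c was at 82.5 to 98.1 CPM (median 90.4) in WT and 75.9 to 99.9 CPM (median 84.6) in NLGF. The ranges of both genotypes overlapped. Of 5 microglial markers 3 were called higher in NLGF at this week, C1qa (0.58), Cx3cr1 (0.36) and Csf1r (0.34), while P2ry12 (0.11, adjusted p = 0.723) and Tmem119 (0.08, adjusted p = 0.821) were not. Their summed level was 237 to 306 CPM in NLGF and 210 to 247 in WT, with none at 0. The only other call among 52 cell type markers was the astrocyte gene Gfap (0.86), and the part of these markers in the subunit levels was not tested.

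**Figure D4:**
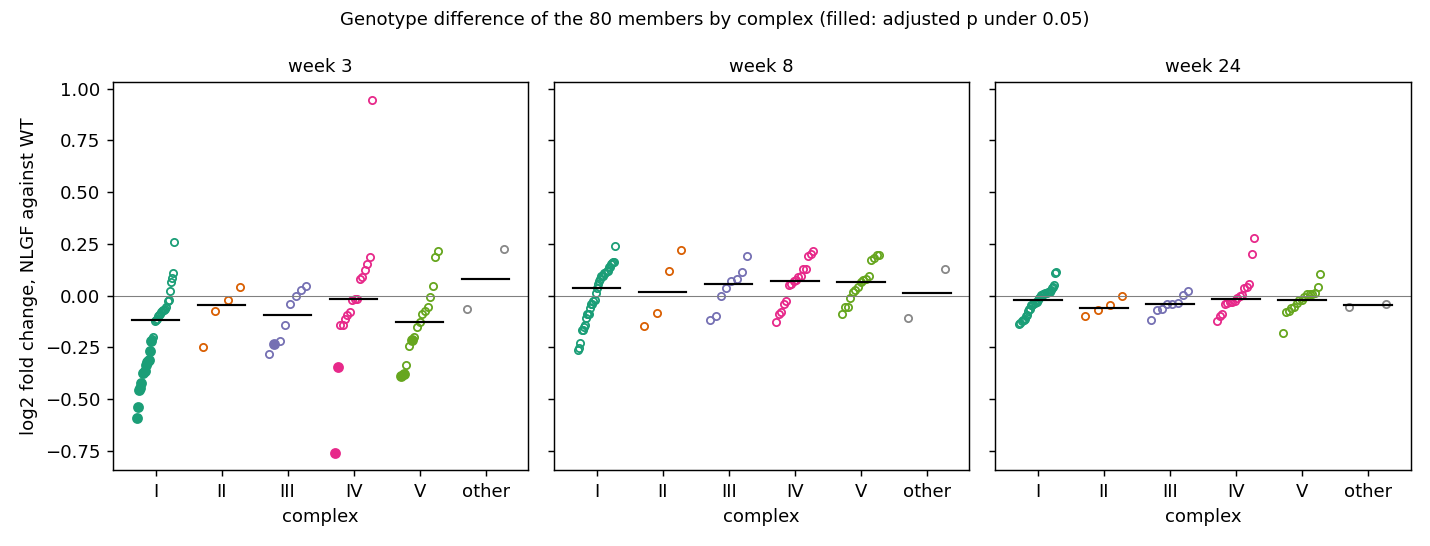
Log2 fold change of NLGF against WT for each of the 80 members (vertical) by complex (horizontal) at weeks 3, 8 and 24; filled points have an adjusted p under 0.05 and bars are medians. The 19 filled points are all at week 3 and all below 0, with Cox7c lowest at -0.76. The open point at 0.95 is Cox8b.

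Whether the genotype difference itself changed with age was tested as an interaction over all 60 libraries. From week 3 to week 8, Cox7c was the 1 member called (0.152% of genes were called with a higher and 0.0282% with a lower difference): its genotype difference was 0.74 ± 0.15 higher at week 8 (log2, adjusted p = 0.0127). At an unadjusted p under 0.05 the count was 32 members higher and 0 lower, where 4.22% of genes were higher and 3.04% lower, and the median over the members was 0.16 (all genes -0.02). From week 3 to week 24, Cox7c (0.67 ± 0.15, adjusted p = 0.00589) and Atp5e (0.40 ± 0.10, adjusted p = 0.0352) were called, with 0.901% of genes higher and 0.248% lower. From week 8 to week 24, 0 members were called (0.31% of genes higher and 0% lower), with 0 higher and 8 lower at an unadjusted p under 0.05 (2.58% and 1.27% of genes) and 0 by DESeq2. Every interaction with week 3 contains the deep libraries, and without them, or with a term for them, 0 members were called in either.

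Cox7c kept both interaction calls when any 1 of the 60 libraries was left out. Atp5e kept its call in 43 of 60 such fits. The count from week 3 to 24 was 1 without NLGF week 24 female 3, 4 or 5 or male 2, WT week 24 female 2, 3 or 5 or male 5, NLGF week 3 female 1, 4 or 5 or male 2, 3, 4 or 5, or WT week 3 male 3 or 4, and 6 without NLGF week 3 male 1. The count from week 3 to 8 was 5 without NLGF week 3 male 1, 4 without NLGF week 3 female 2 or 3, 3 without WT week 3 male 2 or NLGF week 8 male 5 and 2 without WT week 8 male 4. That from week 8 to 24 was 1 without WT week 8 male 5.

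Age alone moved few members in WT mice. From week 3 to 8, 1 member rose and 1 fell, where 2.63% of 16844 genes rose and 4.51% fell. Atp5k, subunit e of the ATP synthase, which helps its dimers form, was at 14.7 to 30.6 CPM (median 26.5) at week 3 and 21.1 to 48.7 CPM (median 35.96) at week 8, a log2 change of 0.51 ± 0.12 (adjusted p = 0.00808). Cox6b1, a complex IV subunit on the intermembrane side, fell by 0.22 (adjusted p = 0.019) from 120.2 to 170.6 CPM (median 150) to 107.8 to 145.5 CPM (median 130.1). Both genes' ranges overlapped between the weeks. In females alone, which include WT week 8 female 1, 0 members rose and 8 fell (median -0.21), where 1.04% of genes rose and 2.04% fell. In males alone 13 rose and 0 fell (median 0.08), where 4.93% of genes rose and 4.62% fell. Whether the change differs between the sexes was not tested. From week 8 to 24, 0 members were called (0.0356% of genes rose and 0.243% fell), with 11 higher and 1 lower at an unadjusted p under 0.05 (5% and 6.48% of genes), and DESeq2 called 1.

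Over the whole span in WT, week 3 to 24, 5 members rose and 1 fell, where 10.6% of all genes rose and 11.3% fell. Atp5s rose by 0.47 (adjusted p = 0.000618), from 5.73 to 10.6 CPM (median 7.94) at week 3 to 9.06 to 12.8 CPM (median 11.1) at week 24. Sdhb rose by 0.22 (adjusted p = 0.0159), from a median of 67.2 CPM to 75.6 CPM. Atp5k (0.38), Atp5c1, the gamma subunit of the rotating stalk (0.30), and Cox6c (0.39) rose too. Without WT week 8 female 1, which enters the spread of this fit, the calls were 11 higher and 2 lower, and without WT week 3 male 3 they were 3. From week 3 to 8 the count of 2 was 8 (6 higher, 2 lower) without WT week 8 female 1, 6 without WT week 3 male 2 or male 5, and 4 without WT week 3 female 4 or WT week 8 male 3 or male 4. All 5 oligodendrocyte markers fell over the same weeks in WT, from a summed level of 5840 to 14900 CPM at week 3 to 2430 to 4340 CPM at week 24 with none at 0. Of the 52 cell type markers 15 fell and 3 rose in all. Those that fell included all 3 of oligodendrocyte precursors (Pdgfra -0.48, Cspg4 -0.41, Vcan -0.49), all 3 of red blood cells (Hbb-bs -1.35, Alas2 -1.44, Hba-a1 -1.32), the endothelial genes Cldn5 (-0.52) and Pecam1 (-0.27), the astrocyte gene Gja1 (-0.29) and the ependymal gene Foxj1 (-0.65). P2ry12, C1qa and the interneuron gene Gad1 rose by 0.22 to 0.47. Already from week 3 to 8, 10 markers fell, the same oligodendrocyte and red cell genes with Pdgfra and Vcan. The part of these markers in the subunit changes was not tested.

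In NLGF mice the week 3 side was taken from the 3 libraries of ordinary depth only. From week 3 to 8, 23 members rose and 1 fell, where 7.19% of 18431 genes rose and 7.42% fell. Complex I held 12 of those that rose, complex V 5, complex IV 4, complex III 1, and Atp5s was the last. Ndufc1 rose from 16.4, 18.7 and 19.8 CPM to 22.2 to 27.3 CPM (median 25.0), a log2 change of 0.46 ± 0.06 (adjusted p = 0.000118). Ndufb4, an accessory subunit of the membrane arm, rose from 17.9, 18.9 and 21.4 CPM to 25.3 to 31.1 CPM (median 27.7), by 0.52 ± 0.08 (adjusted p = 0.000184). For both genes the week 8 libraries lay above all 3 of week 3. Ndufc2 (0.41), Ndufv2 (0.35), Ndufb10 (0.60) and Cox7c (0.48 ± 0.08, adjusted p = 0.000668) rose as well, as did Atp5l, Atp5j, Atp5c1, Atp5f1 and Atp5g3 of complex V by 0.18 to 0.29. Uqcrb (0.45) was the complex III member. The count of 24 was 5 without NLGF week 3 male 1 and 13 without female 2. Of the 52 cell type markers 8 fell and 0 rose between these weeks (Pdgfra, Cspg4, Vcan, Mag, Csf1r, Aldoc, Alas2 and Hba-a1, by 0.28 to 1.29), and their part in the members' changes was not tested.

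The WT and NLGF changes from week 3 to 8 share no library. Their signs matched for 53 of 80 members (66.2%), about the share over all genes (66.4%). Pearson's r was 0.669 and Spearman's rho 0.569 across the 80 genes, which are not independent of each other. Over all genes Pearson's r was 0.553. The members' r includes Cox8b, a gene of low counts at 0.51 in WT and 2.20 in NLGF that was called in neither. Cox7c changed by -0.22 in WT (adjusted p above the threshold) and by 0.48 in NLGF. From week 8 to 24, 0 members were called in NLGF (1.51% of genes rose and 0.651% fell), with 1 higher and 1 lower at an unadjusted p under 0.05 (6.68% and 7.09% of genes), while DESeq2 called 1. The count was 1 without NLGF week 24 male 5.

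**Figure D5:**
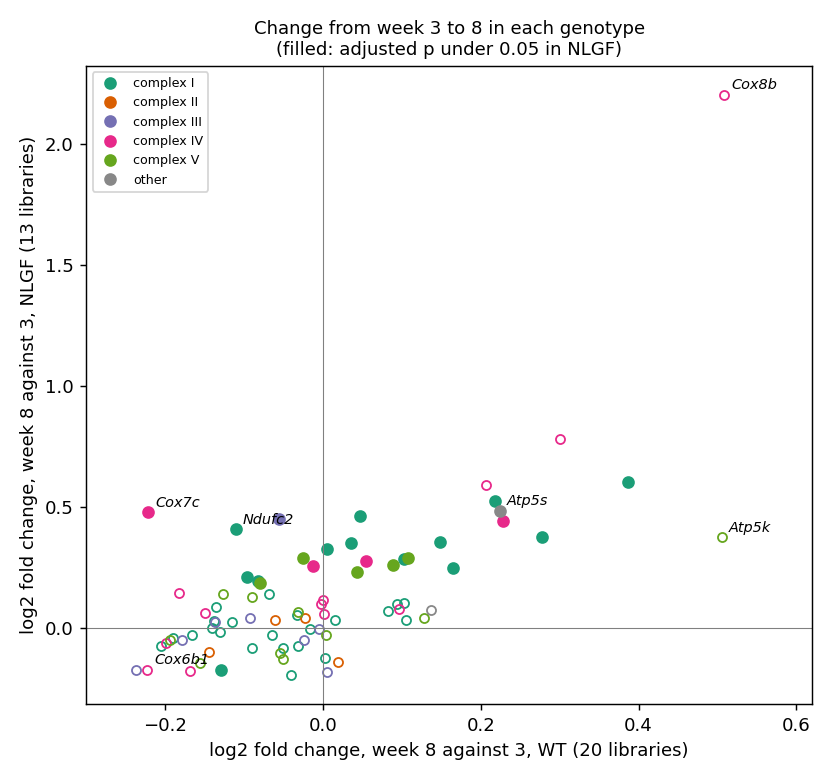
Log2 fold change from week 3 to 8 of each member in WT (horizontal, 20 libraries) and in NLGF (vertical, 13 libraries), coloured by complex, with filled points for those called in NLGF. The 23 filled points above 0 lie between 0.18 and 0.60, and Cox8b lies apart at 2.20 without passing the test.

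Subunits encoded in mitochondrial DNA were split in direction at week 3. Of these 13 genes, 6 were called higher in NLGF (ND2, ND4, ND1, ND5, CYTB and COX1, by 0.65 to 1.32 on the log2 scale) and 0 lower, with a median of 0.65, where 1.67% of all genes and 0 nuclear members were called higher. ND6 differed by 1.196 (adjusted p = 0.0617), and the other 6 lay below 0 without passing the test: COX2 (-1.33), ATP6 (-1.03), COX3 (-0.95), ND4L (-0.86), ATP8 (-0.70) and ND3 (-0.26). ND2 was at 363.8 to 1635 CPM (median 958.7) in WT week 3, at 406, 754 and 1268 CPM in the 3 other libraries and at 2294 to 2999 CPM (median 2706) in the deep ones. COX2 was lowest in the deep libraries, at 49.8 to 164.8 CPM (median 140.3), at 110.6, 190.6 and 211.5 CPM and at 7.53 to 13.4 CPM (median 8.75) in the same order. Within NLGF week 3 the deep libraries had 7 of the 13 higher and 5 lower than the others, where 9.2% of all genes were higher and 9.23% lower. The log2 differences ran from -4.07 for COX2 and COX3 to 2.23 for ND6. ATP8 and ATP6, and ND4L and ND4, overlap in the genome, and counting by strand is not given in the sources used here, so reads in the overlaps cannot be assigned with certainty. In WT from week 3 to 24, 8 of the 13 rose and 0 fell, with a median of 0.88, where 10.6% of all genes rose and 11.3% fell.

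Of 46 assembly factors, which build the complexes but are not part of them, 43 could be tested. At week 3, 1 was higher in NLGF (Lyrm7, a factor for complex III, 0.41) and 2 lower (Timmdc1, -0.29, and Ndufaf7, -0.27, both needed for complex I), with a median of -0.06. Of all genes, 1.67% were higher and 2.11% lower at that week. In WT from week 3 to 24, 10 of the 43 were higher and 2 lower, where 10.6% of all genes were higher and 11.3% lower. From week 3 to 8 in NLGF 10 were higher and 1 lower, where the shares of all genes were 7.19% and 7.42%. Cycs, the somatic cytochrome c that carries electrons from complex III to IV, was lower at week 3 (-0.27, adjusted p = 0.0269), at 36.7 to 54.9 CPM (median 45.1) in WT, 40.15, 40.16 and 41.71 CPM in the 3 others and 33.4 to 37.5 CPM (median 34.9) in the deep libraries. None of the 13 genes of the tricarboxylic acid cycle was called at week 3 (median -0.05). Of 10 genes of the outer membrane and of protein import 2 were lower, Timm23 (-0.35) and Timm44 (-0.30).

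Of 13 regulators of mitochondrial biogenesis, 1 was called at week 3, the transcription factor Yy1 (0.36 higher in NLGF, adjusted p = 0.0438). It was at 20.9 to 33.3 CPM (median 28.9) in WT, 24.2, 28.2 and 31.5 CPM in the 3 others and 36.4 to 41.1 CPM (median 39.0) in the deep libraries, so again only the deep libraries lay outside the WT range. At weeks 8 and 24, 0 genes of all these lists were called between the genotypes.

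Promoters of these genes are known for sites of the factors NRF1, GABP (an ETS factor), YY1 and ERR, the estrogen-related receptors. Windows from 250 bases before to 50 after the RefSeq start (GRCm38.p6) were found for 68 of the 80 members and searched on both strands. The palindromic NRF1 core was in 5 members (7.35%), against 1.07% of 27025 genes and 2.18% of the 10860 genes whose mean reached 1 CPM. The ETS core CCGGAAG was in 16 (23.5%, against 9.93% and 18.1%), the YY1 core AAGATGGCG in 8 (11.8%, against 1.64% and 3.31%) and the ERR core TCAAGGTCA in 2, Atp5g3 and Sdhd (2.94%, against 0.4662% and 0.368%). A match is a stretch of letters and not a shown binding site. The stretches below are 80 bases long, hold the motif and lie wholly before the start. They are shown for the 4 members with an NRF1 core there, and for Atp5e with its ETS core. Atp5e was called in the interaction from week 3 to 24, but not without the deep libraries or with a term for them. The motif is in capitals and each stretch is written 5′ to 3′ on the strand of the gene.
Atp5e (chr2:174464161-174464240, minus strand): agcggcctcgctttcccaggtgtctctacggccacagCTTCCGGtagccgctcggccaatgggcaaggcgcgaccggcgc
Atp5g2 (chr15:102671048-102671127, minus strand): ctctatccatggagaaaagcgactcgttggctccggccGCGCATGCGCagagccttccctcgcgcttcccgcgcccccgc
Atp5k (chr5:108434405-108434484, minus strand): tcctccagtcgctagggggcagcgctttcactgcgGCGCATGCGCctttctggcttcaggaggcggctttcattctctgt
Cox6a1 (chr5:115349076-115349155, minus strand): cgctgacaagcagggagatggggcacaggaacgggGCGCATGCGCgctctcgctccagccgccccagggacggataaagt
Ndufa11 (chr17:56717667-56717746, plus strand): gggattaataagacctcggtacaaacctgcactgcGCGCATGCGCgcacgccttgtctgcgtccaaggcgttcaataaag

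In Uqcrc1, the fifth member with the NRF1 core, the match lies beyond the start and is not printed. At week 3 none of the 5 was called between the genotypes. Atp5g2 (-0.70) and Uqcrc1 (-0.31, adjusted p = 0.0145) were lower in the deep libraries than in the other NLGF week 3 ones, and Atp5k rose from week 3 to 8 in WT. Across the 80 members, the genotype difference at week 3 had a Spearman correlation of -0.053 with transcript length and 0.08 with GC content, as a description over genes that share the same libraries.

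In the authors' deposited table of genotype differences, which lists 2628 genes at week 3 (1306 higher and 1322 lower), 27 members were listed lower and 3 higher. Of the 3, only Cox8a was under 0.05 by the authors' test (adjusted p = 0.0486), while Ndufc2 (0.0538) and Atp5s (0.0564) were not. Cox7c had a log2 fold change of -0.74 there, and its copy Gm10012 had -1.38. The authors' deposited table lists 4 genes at week 8 and 156 at week 24, and no member is among them.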

How the data were processed

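Hippocampal RNA was sequenced in 60 libraries. Reads were aligned with STAR to mm10 after FastQC, and edgeR and DESeq2 were used, per the submitters' processing notes, which give no versions; the sources used here do not give the counting tool or its strand setting. The authors deposited raw counts per gene. The authors' deposited table of genotype differences gives log2 fold changes, p-values and mean levels (a signal scaled by the authors). Only its log2 fold changes and adjusted p-values were read.

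From the counts, library sizes were scaled by TMM, and genes were kept with filterByExpr at a minimum count of 10. Differences were tested with edgeR 4.0.16 in R 4.3.3 (quasi-likelihood F test, robust, 2-sided), with sex as covariate and Benjamini-Hochberg adjustment over all genes tested at 0.05. The SE is the log2 fold change over the square root of F. Levels are TMM-scaled CPM over all 60 libraries, and deviations are in log2 CPM with a pseudocount of 0.5. Near copies were found with blastn 2.17.0 at 90% identity over 50% of the length. Each edgeR model was tested on simulated data, but not every comparison drawn from it, and DESeq2 was not.

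The members and gene lists were chosen with earlier results of these data known. Named are, in each comparison, up to 3 called members per complex and direction by smallest p (or, with none called, the 3 of smallest p), the core subunits, the isoform pairs and Cox7c, and up to 2 called genes of each other list. Other members were named to account for the calls; 1 called member is counted but not reported by name here. Alternatives were other scalings, filters, DESeq2 1.42.0, a replicate block, 1 sex, other library sets and leaving out each library; the copies' reads and the filter of the WT fit were added after seeing the data.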

Additional observations from a re-analysis of the deposited data

Results flagged for a closer look

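Single libraries far from the other 9 of their genotype and week were looked for with Dixon's ratio (95% critical value) in 270 combinations of a gene and a group and in 42 of a complex and a group. It picked out 35 of the first (13%) and 4 of the second (9.52%). Chance picks about 1 in 20 only where values are normal and independent, and the combinations here share libraries. The genes looked at did not cover every member. Values are CPM unless stated.

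The library with the most was WT week 8 female 1, with 12 of the 35 genes, and it was the lowest of its group in each: Atp5j 24.4, Cox6c 34.3, Cox7a2 34.3, Cox7a2l 53.7, Cox7b 39.5, Ndufb4 11.3, Ndufc1 12, Ndufc2 17.5, Ndufs3 33.6, Ndufv2 37.9, Uqcrb 7.15 and Uqcrh 43.3. All 4 of the combinations by complex were its own, with the lowest median deviation, at -0.47 log2 units over all members, -0.50 in complex I, -0.58 in complex IV and -0.48 in complex V.

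In WT week 3, male 5 was the highest for Cox4i1 (472), Ndufa9 (98.9), Ndufs1 (158), Ndufv1 (179) and Sdha (432). Female 3 was the highest for Cox7a2l (84.6) and male 2 the lowest for Uqcrh (53.7).

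The NLGF week 3 group of 10 mixes the 7 deep and 3 other libraries. There male 1 stood apart for Atp5c1 (70.1), Cox4i1 (407) and Ndufb9 (116), female 1 for Atp5g1 (131) and female 3 for Ndufb4 (21.4) and Ndufs1 (117).

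In the older groups WT week 24 female 4 stood apart for Atp5j2 (83.0), Cox8a (243) and Ndufa1 (31.8), and WT week 24 male 4 for Cox6b2 (6.53). NLGF week 24 female 3 did so for Cox7a1 (3.20) and Cox8b (6.90), and male 5 of that group for Ndufs3 (43.6). In NLGF week 8 it was male 5 for Atp5l (53.9), female 1 for Ndufc2 (37.8) and male 1 for Sdhb (82.8).

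The genotype difference changed between weeks by the interaction test for Cox7c (0.74 from week 3 to 8 and 0.67 from week 3 to 24, log2) and for Atp5e (0.40 from week 3 to 24). Neither gene was called without the deep libraries or with a term for them.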

How the results depend on the processing

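Over all settings and left-out libraries, 989 counts and medians of members stayed within their limits and 85 moved, and of values for named genes 2372 kept direction and side, 185 lost the call, 6 gained it and 34 reversed. The cause was not tested except where fewer libraries entered. At week 3 the 19 called members became 9 with the replicate block, 8 in females, 0 in males, 0 without the deep libraries, 0 with a term for them, 32 with the deep libraries alone (3 higher, 29 lower) and 11 without NLGF male 2; the median was -0.19 in females. For week 8 minus 3 the count of 1 became 3 with upper quartile scaling, 4 with DESeq2, 4 with the block, 6 in females (median 0.28), 0 in males (median 0.043) and 0 without the deep libraries or with their term. For week 24 minus 3 the count of 2 became 1 without a filter, 1 in females (median 0.18), 0 in males and 0 without the deep libraries or with their term. In WT, week 8 against 3 (2) gave 4 with DESeq2, 1 without a filter, 4 with a filter of 1 CPM, 8 in females (median -0.21) and 13 in males (median 0.076). Week 24 against 8 (0) gave 1 with DESeq2 and 1 in males, with a median of 0.16 in females, and week 24 against 3 (6) gave 1 in females and 14 in males. In NLGF, week 24 against 8 (0) gave 1 with DESeq2 and 1 with the filter of 1 CPM. Leaving out each library in turn gave 6 to 26 at week 3, 1 to 5 for week 8 minus 3, 1 to 6 for week 24 minus 3 and 0 to 1 for week 24 minus 8. It gave 2 to 8, 0 to 0 and 3 to 13 for WT week 8 against 3, 24 against 8 and 24 against 3, 5 to 25 and 0 to 1 for NLGF week 8 against 3 and 24 against 8, and 6 to 22 between the kinds of library.

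Reversals were limited to Cox7c where it was not called: at week 8, 0.018 with the block, 0.22 in females and -0.12 to 0.046 over left-out libraries; at week 24, 5e-04 in females; for week 24 minus 8, 0.10 in males and -0.13 to 0.025 over left-out libraries; in WT, 0.23 in males from week 3 to 8, and from week 8 to 24 9e-04 with upper quartile scaling, 0.015 with the block, 0.26 in females and -0.10 to 0.071 over left-out libraries; and between the kinds of library, -0.0034 with RLE, -0.0051 with upper quartile scaling, -0.0035 with DESeq2, -0.037 with the copies added and -0.11 to 0.10 over left-out libraries. Same-numbered libraries of the 2 genotypes were not paired: their deviations correlated from -0.213 to 0.518, above 0.1 in 2, 3 and 6 of 10 pairs at weeks 3, 8 and 24. Members near 1 CPM, such as Cox8b and Cox7a1, rest on the fewest reads and are the least precise.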

Other observations

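Within groups, members varied most in the young and middle WT groups. The median SD of a member (log2 CPM) was 0.203 in WT week 3 and 0.257 in WT week 8, against 0.0955 to 0.134 in the other groups. Over all genes it was 0.232 and 0.251 in those WT groups and 0.1505 to 0.1872 in the others, so all genes also varied most there. In WT week 8, males 2, 3 and 4 held the highest levels of Ndufb3, Ndufa1, Cox7c and Ndufb10: Ndufb10, an accessory subunit of complex I, ran from 23.1 to 87.4 CPM there against 39.4 to 53.5 CPM in NLGF week 8. Ndufb10 was also the member with the smallest p in the 3 other NLGF week 3 libraries against WT, at 24.1, 34.4 and 34.4 CPM against 30.04 to 54.8 CPM (median 44.5), a log2 difference of -0.56 that did not pass the adjustment (adjusted p = 0.134).

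The genotype difference of Ndufc2 had opposite signs in the 2 kinds of NLGF week 3 library, -0.39 in the 3 others and 0.46 in the 7 deep ones against the same WT libraries.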
